A study of Mus musculus with 130 samples.

Results

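The comparison described here sets mouse embryonic stem cells that lack the de novo DNA methyltransferases Dnmt3a and Dnmt3b (Dnmt3a/3b DKO) against the wild-type line J1 (WT J1), gene by gene. A gene was measured where it reached 1 CPM (the library's read count for the gene, scaled to a fixed library total) in either library, and genes on chromosome Y were left out. This gave 13738 of the 52550 genes in the tables. Embryonic stem cells renew themselves in culture and derive from the early mouse embryo before it implants. Both lines are of strain 129S4/SvJae, with the genotype labels WT and Dnmt 3a/3b-/-, and were kept on gelatin in serum with leukemia inhibitory factor (LIF). Each genotype has 1 RNA-seq library, and the labels do not say how many clones each line stands for. Smart-seq2, which amplifies full-length cDNA, was used for both. 8 further RNA libraries of the series, 1 a group, serve as side values. 2 of them are given gene by gene: a line of the J1 strain in which Dnmt1 is missing as well (Dnmt1/3a/3b TKO) and the wild-type line TT2, of strain C57BL/6xCBA (WT TT2). The other 6 are of that strain too and enter only for transcript length and at the chromosome 14 stretch. They are G9a/GLP DKO (genotype G9a-/-;GLP-/-) and G9a CM (G9a-/- with the transgene Tg(Y1120V;Y1207F)), each a single named clone. The rest are wild-type TT2 cells given the G9a inhibitor UNC0638 for 2, 4 or 14 days or DMSO as its control. The labels disagree on the unit of the inhibitor's dose.

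DNA methylation is set on unmethylated CpG dinucleotides by Dnmt3a and Dnmt3b, with Dnmt3l as a cofactor without catalytic activity, and is copied at each replication by Dnmt1. Methylation of promoters keeps a set of germline genes silent in somatic cells, and methylation inherited from the egg or sperm marks imprinted genes. Embryonic stem cells lacking both de novo enzymes keep dividing, and their methylation is known to fall over many passages because Dnmt1 alone does not maintain it fully.

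With 1 library a genotype there is no replicate spread, no test between genotypes was possible, and no p-value is given. A gene is called higher or lower in the sense of a description of these 2 libraries: its log2(CPM + 1) differed by at least 1 and its 2 counts gave a ratio whose 95% interval (Clopper-Pearson, exact, conditional on their sum) excluded 1. These intervals, given beside folds, cover counting error only. Folds are ratios of CPM, and where WT J1 or Dnmt3a/3b DKO had 0 counts the fold uses 3 counts as that library's floor and is a lower bound. By this rule 1268 genes (9.23%) were higher and 1358 genes (9.88%) were lower in Dnmt3a/3b DKO, and 11112 were neither. A gene under 1 CPM in WT J1 was measured only because Dnmt3a/3b DKO reached the minimum, so it could not be called lower. There were 918 such genes, and 409 of the 1268 higher calls came from them. Among the 12820 genes at 1 CPM or more in WT J1, 6.70% were higher and 10.6% lower. The scatter of levels shows both wings, with 197 genes higher and 202 lower by a log2 difference of at least 2.

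**Figure D1:**
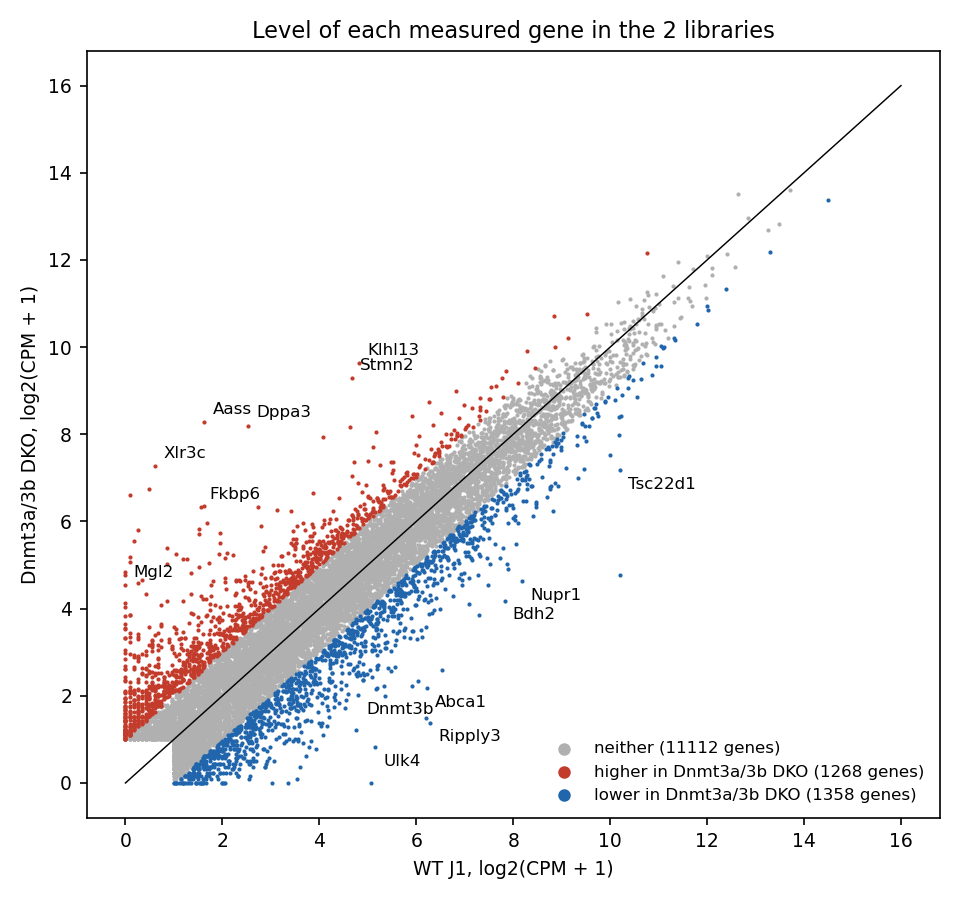
Level of each of 13738 measured genes in WT J1 (x axis) and Dnmt3a/3b DKO (y axis), both as log2(CPM + 1), with 1 point a gene and the diagonal drawn. The 1268 red genes met the rule for higher and the 1358 blue genes the rule for lower, and Aass and Ripply3 lie among the farthest from the diagonal.

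The balance of higher and lower depended on the scaling. Of the 2626 calls, 48.3% were higher with the main scaling (TMM factors over the 10 RNA libraries), 63.7% with plain total counts and 71.9% with the deposited TPM. Relative to the main scaling, the median difference of all measured genes moved by 0.17 with total counts and by 0.28 with TPM, so list medians below are set beside the median over all measured genes, which was 0.01. Of 190 named genes that met the rule, 37 had a log2 difference under 1 with TPM, 10 with total counts and 15 after the centring on length described below. Among the genes printed here these were Dnmt3a, Tet3, Cdkn1c, Tfcp2l1, Socs2, Tcf7l2, Atf3, Slc3a2, Bhlhe40, Ctcfl and Eed with TPM, Tet3 and Cdkn1c with total counts, and Smc1b after centring. Total counts were close, at 16405518 in WT J1 and 16159575 in Dnmt3a/3b DKO. The difference also ran with transcript length: its median was -0.48 in the shortest decile of genes by effective length and 0.20 in the longest decile. Of the shortest decile 19.1% were lower and 5.75% higher, against 5.53% and 8.66% of the longest decile. The medians of the shortest decile against the same WT J1 library were -0.33 in Dnmt1/3a/3b TKO and -0.36 in WT TT2. They were -0.59 in G9a CM, -0.64 in G9a/GLP DKO and between -1.36 and -1.46 in the 4 TT2 libraries of the G9a inhibitor series. The medians of the longest decile were -0.09 in Dnmt1/3a/3b TKO and -0.18 in WT TT2, below the 0.20 of Dnmt3a/3b DKO. The part of length in the results below was not tested, and for lists of short genes a median centred on the length decile is given beside the plain one. After such centring 1226 genes (8.92%) were higher and 1246 (9.07%) lower.

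**Figure D2:**
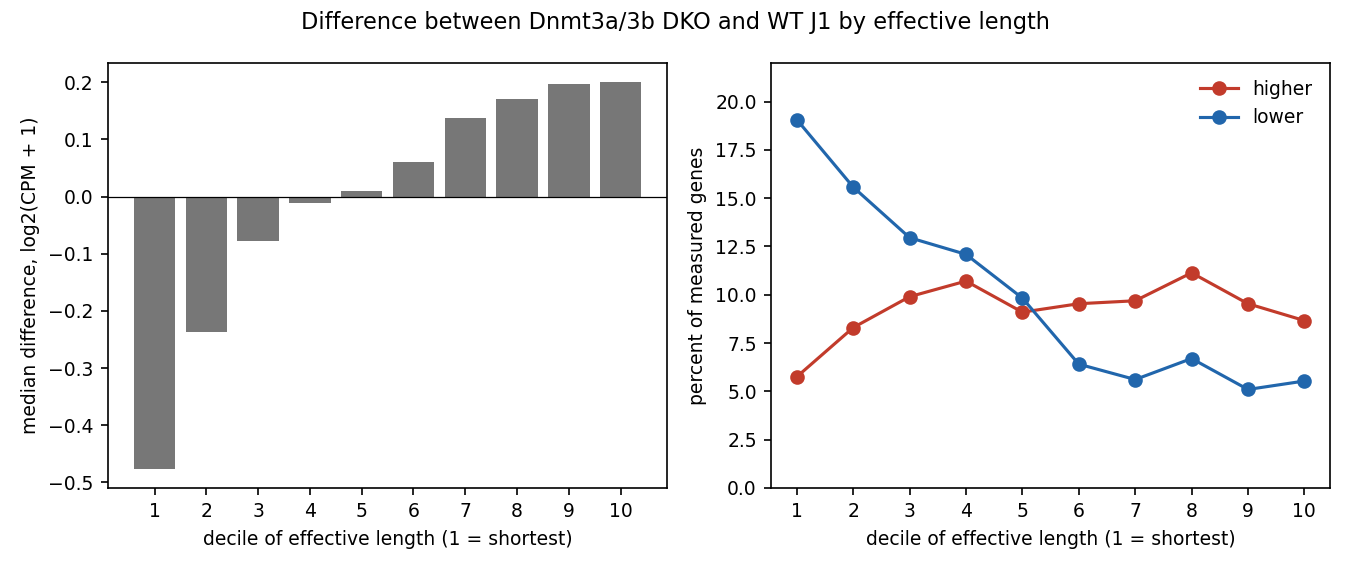
Median difference between Dnmt3a/3b DKO and WT J1 (left, log2(CPM + 1)) and percent of measured genes called higher or lower (right) for each decile of the 13738 genes by effective length, from shortest (1) to longest (10). The median is -0.48 in the shortest decile and 0.20 in the longest, and the share of lower genes 19.1% and 5.53%.

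All 10 embryonic stem cell markers that were checked were present in both libraries, and 2 met the rule. Dppa5a, the most abundant, was lower at 23099 against 10598 CPM, and Lin28a was higher at 5.84 against 16.5 CPM. Tdgf1, at 1185 against 632 CPM, did not meet it. Zfp42 stood at 2055 CPM in WT J1 and 2027 CPM in Dnmt3a/3b DKO, Nanog at 392 against 477 CPM, Sox2 at 159 against 174 CPM and Esrrb at 165 against 128 CPM. Pou5f1, which has near-identical pseudogenes, stood at 10.3 against 18.5 CPM, and whether its reads were shared with them was not examined. Markers of fibroblasts were scarce: their summed level was 5.97 CPM in WT J1 and 10.6 CPM in Dnmt3a/3b DKO over 15 genes, with Col3a1 at 0 counts in both.

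The targeted genes were read first, as a check of the labels. Dnmt3b (ENSMUSG00000027478.15, chromosome 2, 153649411 to 153687730 in GRCm38) was present at 26.9 CPM in WT J1 and 3.05 CPM in Dnmt3a/3b DKO, with 2.68 CPM in Dnmt1/3a/3b TKO and 102 CPM in WT TT2. It was 8.83-fold (interval 6.59 to 12.1) lower in Dnmt3a/3b DKO. Dnmt3a (ENSMUSG00000020661.15, chromosome 12, 3801559 to 3914443) stood at 17.4 CPM in WT J1 and 4.30 CPM in Dnmt3a/3b DKO and was 4.04-fold (interval 3.10 to 5.32) lower. Its level per length did not follow its count: the deposited TPM was 4.66 in WT J1 and 5.07 in Dnmt3a/3b DKO. TPM divides the count by the effective length that RSEM assigned, and this was 2762 bases in WT J1 against 831 in Dnmt3a/3b DKO, a 3.32-fold shortening. Among 9038 genes with at least 4 CPM in both libraries this was the largest shift of effective length in either direction, ahead of the zinc finger gene Zfp989 at 2.60-fold. The effective length of Dnmt3a was 1017 bases in Dnmt1/3a/3b TKO and 1797 in WT TT2. Effective length is an average over a gene's transcripts weighted by their estimated abundance, so the counts left for Dnmt3a in both mutants were assigned to shorter transcripts than in the wild types.

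Other parts of the methylation machinery differed less uniformly. Of 24 listed genes 23 were measured, with 3 higher and 3 lower, beside 9.23% and 9.88% of all genes. The median difference was 0.01. Dnmt1 stood at 46.6 CPM in WT J1 and 62.5 CPM in Dnmt3a/3b DKO (log2 difference 0.41) and did not meet the rule. Dnmt3l, the cofactor of the absent enzymes, was 6.14-fold (interval 5.59 to 6.76) higher, at 33.7 against 207 CPM, beside 258 CPM in Dnmt1/3a/3b TKO and 73.8 CPM in WT TT2. Trim28, the corepressor that recruits H3K9 methylation to silenced repeats, was present at 217 against 622 CPM, 2.86-fold higher. Mbd3, a NuRD subunit, was 2.64-fold higher at 14 against 36.9 CPM. Besides the targeted pair, the lower gene was Tet3, which oxidises 5-methylcytosine, at 9.73 against 4.30 CPM.

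The 15 largest higher protein-coding genes held 8 members of the Xlr family, X-linked genes whose proteins resemble the synaptonemal complex protein Sycp3. Outside that family the largest difference was that of Aass, the first enzyme of lysine degradation (chromosome 6, 23072173 to 23132986), at 2.08 CPM in WT J1 and 310.4 CPM in Dnmt3a/3b DKO, 149-fold (interval 105 to 219.8) higher. It stood at 90.4 CPM in Dnmt1/3a/3b TKO and 3.81 CPM in WT TT2. Dppa3, a maternal-effect protein that keeps Uhrf1 off chromatin, stood at 4.77 CPM in WT J1 and 292 CPM in Dnmt3a/3b DKO, 61.3-fold (interval 48.5 to 78.7) higher. WT TT2 had the highest level of Dppa3 of the 4 libraries, 549 CPM, and WT J1 the lowest. Klhl13, an X-linked substrate adaptor of a cullin ubiquitin ligase, stood at 27.3 CPM in WT J1 and 796 CPM in Dnmt3a/3b DKO (29.2-fold, interval 26.4 to 32.3). Its level was 526 CPM in Dnmt1/3a/3b TKO and 288 CPM in WT TT2, and WT J1 was again the lowest of the 4. Stmn2, a neuronal microtubule-destabilising protein, showed the same order at 24.4 CPM in WT J1, 277 in WT TT2, 621 in Dnmt1/3a/3b TKO and 626 in Dnmt3a/3b DKO.

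Other genes were low in both wild types. Efhc2, an X-linked gene for an EF-hand protein, stood at 2.08 CPM in WT J1, 0.669 in WT TT2, 28.6 in Dnmt1/3a/3b TKO and 81 in Dnmt3a/3b DKO (38.9-fold, interval 27.3 to 57.5 against WT J1). Mgl2, a C-type lectin known from macrophages and dendritic cells, had 0 counts in WT J1, stood at 22.3 CPM in Dnmt3a/3b DKO and was at least 111-fold higher. It stood at 41 CPM in Dnmt1/3a/3b TKO and 1.42 CPM in WT TT2. In the plot of the named genes in 4 libraries, the green point of WT TT2 lies away from the black point of WT J1, on the side of Dnmt3a/3b DKO, in most rows of both panels. The genes were chosen for their difference from WT J1, which both comparisons share.

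**Figure D3:**
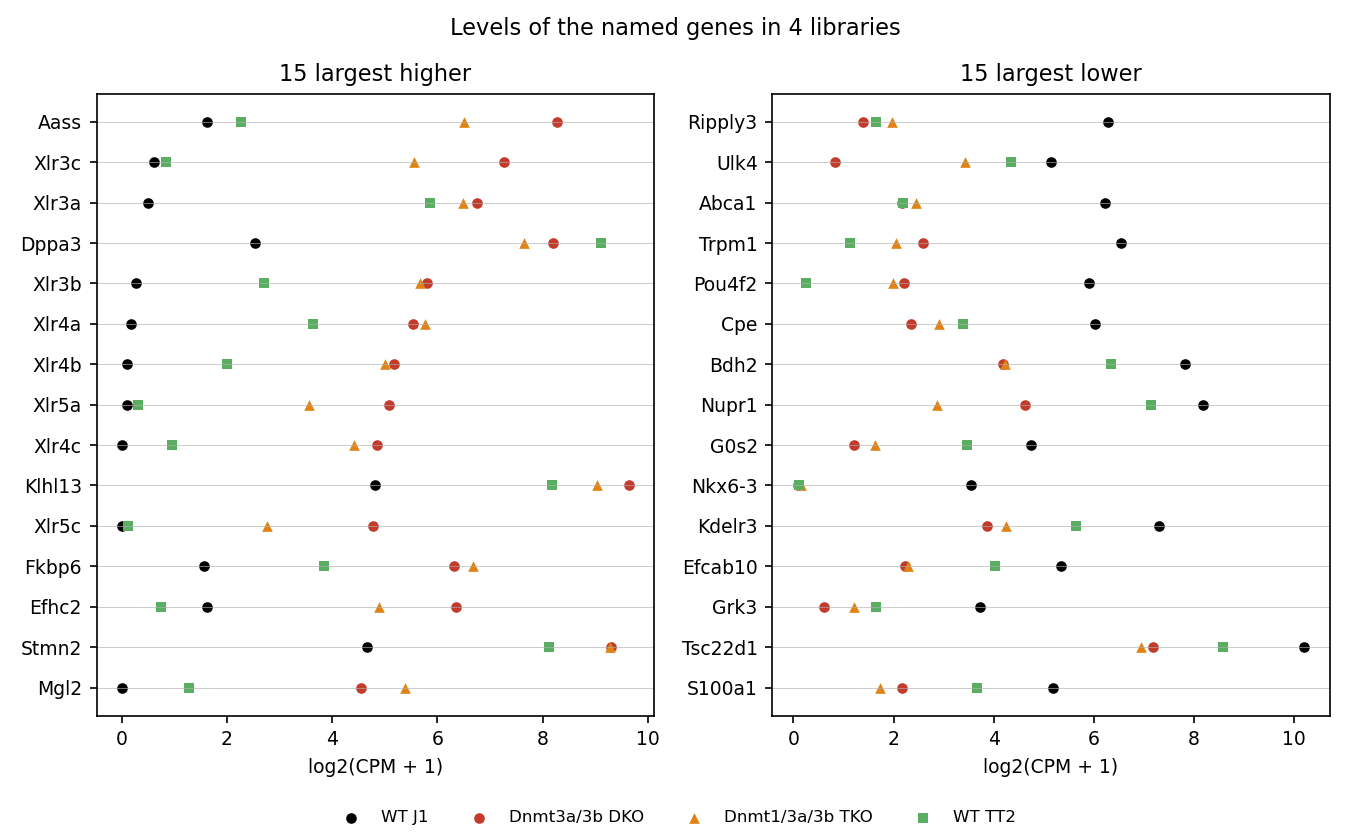
Levels of the 15 largest higher (left) and 15 largest lower (right) named genes as log2(CPM + 1) in 1 library each of WT J1 (black), Dnmt3a/3b DKO (red), Dnmt1/3a/3b TKO (orange triangles) and WT TT2 (green squares). Aass is low in both wild types, whereas Dppa3 at 549 CPM is highest in WT TT2, and Ripply3 and Abca1 are high in WT J1 and under 5 CPM in the other 3 libraries.

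Among the 15 largest lower genes, WT J1 had the highest of the 4 levels in every row of the plot. Ripply3, a corepressor that binds T-box factors (chromosome 16, 94328422 to 94336935), stood at 76.5 CPM in WT J1 and 1.61 CPM in Dnmt3a/3b DKO, 47.4-fold (interval 32.4 to 72.3) lower, with 2.90 CPM in Dnmt1/3a/3b TKO and 2.12 CPM in WT TT2. Abca1, the cholesterol export pump of the plasma membrane, stood at 73.4 CPM in WT J1 and 3.53 CPM in Dnmt3a/3b DKO, 20.8-fold (interval 16 to 27.5) lower, with 4.44 CPM in Dnmt1/3a/3b TKO and 3.58 CPM in WT TT2. Trpm1, a cation channel of melanocytes and retinal bipolar cells, stood at 92.1 CPM in WT J1 against 5.02, 3.12 and 1.18 CPM in Dnmt3a/3b DKO, Dnmt1/3a/3b TKO and WT TT2. The homeobox gene Nkx6-3 stood at 10.6 CPM in WT J1 and at 1 count in Dnmt3a/3b DKO, 177-fold (interval 31.4 to 7054) lower.

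A different order held for Ulk4, a pseudokinase. It stood at 34.5 CPM in WT J1, 19.2 in WT TT2, 9.75 in Dnmt1/3a/3b TKO and 0.777 in Dnmt3a/3b DKO, the lowest of the 4. Its effective length was 587 bases in WT J1 and 4016 in Dnmt3a/3b DKO, where 13 counts were assigned. Its TPM was 43.5 in WT J1 and 0.19 in Dnmt3a/3b DKO. Nupr1, a stress-induced chromatin protein, stood at 288 CPM in WT J1 and 23.8 CPM in Dnmt3a/3b DKO (12.1-fold lower, interval 10.9 to 13.5) and at 6.30 CPM in Dnmt1/3a/3b TKO and 140.1 CPM in WT TT2. Bdh2, a short-chain dehydrogenase, stood at 225 CPM in WT J1 and 17.1 CPM in Dnmt3a/3b DKO (13.1-fold lower, interval 11.6 to 14.9), with 17.6 CPM in Dnmt1/3a/3b TKO and 80.2 CPM in WT TT2. It is the first of 4 neighbouring measured genes on chromosome 3 that were all lower, from 135281221 to 135424039, the others being Slc9b2, Slc9b1 and Cisd2. Kdelr3, a receptor that returns proteins to the endoplasmic reticulum, was 11.5-fold lower, and G0s2, an inhibitor of the triglyceride lipase Atgl, 19.7-fold lower.

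Germline genes whose promoters are known to be methylated in somatic cells were higher in part. Of 39 listed genes 37 were measured, with 14 higher, 5 lower and 18 neither, and a median of 0.21. Of all genes 9.23% were higher and 9.88% lower. Of the measured germline genes 31 reached 1 CPM in WT J1, and 8 of these were higher and 5 lower. The other 6 passed the minimum only through Dnmt3a/3b DKO, could not be lower and were all higher. Fkbp6, an immunophilin of the piRNA pathway (chromosome 5, 135291704 to 135351809), stood at 1.95 CPM in WT J1 and 78.9 CPM in Dnmt3a/3b DKO, 40.6-fold (interval 28.1 to 60.8) higher, with 101 CPM in Dnmt1/3a/3b TKO and 13.3 CPM in WT TT2. Tuba3a, a testis alpha-tubulin, stood at 1.28 CPM in WT J1 and 34.2 CPM in Dnmt3a/3b DKO (26.8-fold, interval 17 to 44.9), but WT TT2 held 28.2 CPM. Asz1, which organises piRNA production at germ cell mitochondria, had 0 counts in WT J1 and 7.23 CPM in Dnmt3a/3b DKO (at least 35.9-fold higher), with 24.9 CPM in Dnmt1/3a/3b TKO and 1.73 CPM in WT TT2. The X-linked Nxf2, an RNA export factor of testis, stood at 0.604 against 6.33 CPM. In the opposite direction Tex13b, a testis gene on the X, stood at 4.90 CPM in WT J1 and 0.120 CPM in Dnmt3a/3b DKO, 41-fold (interval 11 to 345) lower.

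Sequences upstream of annotated starts of these genes are shown because CpG sites are the substrate of the missing enzymes. The 250 bases before the RefSeq start (GRCm38.p6) are printed 5′ to 3′ on the gene's strand, with each CG in capitals. The first 3 belong to the germline genes with the largest higher differences, the next to Aass, and the last pair to genes that were lower. RefSeq's table lists several starts for Fkbp6, of which the more upstream is used. The windows of Fkbp6 and Ulk4 lie inside their gene models, which reach 1515 and 8737 bases beyond the window, and that of Abca1 overlaps its gene model in part.
Fkbp6 (chr5:135350045-135350294, minus strand): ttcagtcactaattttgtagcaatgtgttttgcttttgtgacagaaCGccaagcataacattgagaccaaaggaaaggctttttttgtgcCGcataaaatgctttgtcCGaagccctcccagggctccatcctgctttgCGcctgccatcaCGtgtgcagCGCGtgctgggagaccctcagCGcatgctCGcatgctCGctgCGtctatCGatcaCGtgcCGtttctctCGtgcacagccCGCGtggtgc
Tuba3a (chr6:125286082-125286331, minus strand): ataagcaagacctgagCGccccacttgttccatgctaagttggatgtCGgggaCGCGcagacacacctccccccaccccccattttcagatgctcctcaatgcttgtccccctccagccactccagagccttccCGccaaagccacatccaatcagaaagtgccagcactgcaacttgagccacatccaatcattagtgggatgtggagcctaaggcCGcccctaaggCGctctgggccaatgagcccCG
Asz1 (chr6:18109062-18109311, minus strand): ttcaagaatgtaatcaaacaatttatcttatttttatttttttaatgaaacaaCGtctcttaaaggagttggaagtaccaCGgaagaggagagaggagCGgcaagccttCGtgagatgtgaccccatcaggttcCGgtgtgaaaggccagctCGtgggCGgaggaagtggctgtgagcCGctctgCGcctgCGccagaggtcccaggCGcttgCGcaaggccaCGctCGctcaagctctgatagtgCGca
Aass (chr6:23132987-23133236, minus strand): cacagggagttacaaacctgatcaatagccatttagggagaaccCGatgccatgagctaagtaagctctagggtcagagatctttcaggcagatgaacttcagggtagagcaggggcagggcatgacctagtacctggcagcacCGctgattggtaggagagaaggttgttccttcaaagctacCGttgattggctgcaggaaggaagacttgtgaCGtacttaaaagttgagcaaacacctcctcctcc
Ulk4 (chr9:121277173-121277422, minus strand): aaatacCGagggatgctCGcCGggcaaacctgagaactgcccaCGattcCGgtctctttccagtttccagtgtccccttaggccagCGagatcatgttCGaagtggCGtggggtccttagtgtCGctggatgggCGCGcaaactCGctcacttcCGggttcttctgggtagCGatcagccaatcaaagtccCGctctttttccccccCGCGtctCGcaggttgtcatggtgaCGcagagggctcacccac
Abca1 (chr4:53159896-53160145, minus strand): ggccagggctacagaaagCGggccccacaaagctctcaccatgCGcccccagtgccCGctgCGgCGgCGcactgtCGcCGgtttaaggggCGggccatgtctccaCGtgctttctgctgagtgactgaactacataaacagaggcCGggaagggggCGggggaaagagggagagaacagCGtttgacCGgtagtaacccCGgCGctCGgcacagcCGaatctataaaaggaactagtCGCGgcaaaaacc

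These windows held 17, 8, 15, 4, 19 and 20 CpG sites in the order printed, against a median of 16 over the 10233 measured genes with an entry. The E-box CACGTG, a palindrome that reads the same on both strands, occurred 2 times in the Fkbp6 window and 1 time in that of Abca1. It occurs in 6.04% of all 27025 windows. The E2F-type motif GCGGGA, searched on both strands and not overlapping the E-box, occurred 1 time each in the windows of Tuba3a and Ulk4 and in 16.9% of all windows. A match is a description of the letters and not a bound site. Over the germline list the median CpG count was 15 in 13 higher genes with an entry, 12 in 5 lower ones and 17 in 15 that were neither.

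Oocyte and primordial germ cell genes were mixed. Of 29 listed genes 15 were measured, with 6 higher (2 of them from under 1 CPM in WT J1) and 2 lower. Of all genes 9.23% were higher and 9.88% lower. The list's median difference was 0.46. The partners Khdc3 and Ooep, both of the subcortical maternal complex of the egg, lay in opposite directions: Khdc3 stood at 9.67 CPM in WT J1 and 74.8 CPM in Dnmt3a/3b DKO (7.74-fold higher, interval 6.51 to 9.26) and Ooep at 487 CPM in WT J1 and 112 CPM in Dnmt3a/3b DKO (4.37-fold lower, interval 4.15 to 4.60). Ooep stood at 148 CPM in Dnmt1/3a/3b TKO and 122 CPM in WT TT2. Tfap2c, a transcription factor of primordial germ cells and trophoblast, stood at 8.19 CPM in WT J1 and 35.7 CPM in Dnmt3a/3b DKO and was 4.36-fold higher, with 36.1 CPM in WT TT2.

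Genes of the 2-cell embryo, which a few cells of an embryonic stem cell culture are known to express at a time, were low in WT J1. In bulk RNA, fewer such cells and less RNA in each cannot be told apart, and the same holds for every level here. Of 22 listed genes 8 were measured and 7 were higher, but 1 reached 1 CPM in WT J1 and the others could only be counted where higher. That gene was Calcoco2, an autophagy receptor, at 15.9 CPM in WT J1 and 245 CPM in Dnmt3a/3b DKO (15.4-fold, interval 13.5 to 17.7), with 904 CPM in Dnmt1/3a/3b TKO and 76.5 CPM in WT TT2. The Zscan4 genes, which are near-identical, lie next to each other on chromosome 7. A run of 7 neighbouring measured genes there, from 10794241 to 11614112, was higher throughout, with Zscan4c at 0.336 against 4.54 CPM.

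The longest run of higher neighbours lay on chromosome X. Of 520 measured X-linked genes 115 (22.1%) were higher and 40 (7.69%) lower, against 8.90% and 9.74% of 12731 autosomal genes. Of the higher X-linked genes 67 came from the 81 under 1 CPM in WT J1. Among those at 1 CPM or more there, 48 of 439 X-linked genes (10.9%) and 6.71% of autosomal genes were higher. The run comprised 13 neighbouring measured genes from X 37208502 to 38129966, the Rhox cluster of reproductive homeobox genes with Gm9 and Dppa3-ps. Of these 13 genes 8 were under 1 CPM in WT J1 and could only be higher. Another run, 7 genes from X 73033981 to 73222453, held Pnma5 and the Xlr3, Xlr4 and Xlr5 genes. A run of 5 genes from X 51386637 to 52613974 held Hs6st2, an enzyme that sulphates heparan sulphate, and the heparan sulphate proteoglycans Gpc4 and Gpc3. A run of 4 included Xlr itself. All 7 genes of the Zscan4 run, all 7 of the Xlr run, 3 of the 5 and 3 of the 4 were likewise under 1 CPM in WT J1.

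All 10 Xlr genes were measured and higher, with a median difference of 5.03. None reached 1 CPM in WT J1, so none could have been counted as lower. Their summed level was 1.88 CPM in WT J1, 503 in Dnmt3a/3b DKO, 314 in Dnmt1/3a/3b TKO and 80.4 in WT TT2. The members differed in WT TT2: Xlr3a stood at 57.4 CPM there and Xlr3c at 0.787 CPM, against 107 and 154 CPM in Dnmt3a/3b DKO. These genes are near-identical, and how RSEM shared reads among them is uncertain.

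Of 32 Rhox genes 11 were measured and all 11 were higher, 5 of them from at least 1 CPM in WT J1. Rhox5, the founding member, stood at 65.9 CPM in WT J1 and 248 CPM in Dnmt3a/3b DKO (3.77-fold, interval 3.52 to 4.05), and at 295 CPM in Dnmt1/3a/3b TKO and 462 CPM in WT TT2. Rhox6 stood at 1.88 against 55.6 CPM and Rhox9 at 1.41 against 34.1 CPM, and WT TT2 held 57.2 and 33.3 CPM of these, close to Dnmt3a/3b DKO. Of 21 Mage genes 13 were measured, with 7 higher and 0 lower. Of the 6 that reached 1 CPM in WT J1, 1 was higher, Maged1. The measured Magea genes, known as cancer-testis antigens, were near 0 in both wild types: Magea8 had 0 counts in WT J1, 0.118 CPM in WT TT2 and 13.3 CPM in Dnmt3a/3b DKO, and Magea4 had 0.118 and 8.49 CPM in the last pair.

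In all, 82 measured genes had 0 counts in WT J1, of which 24 were X-linked and 72 protein-coding, and each met the rule for higher, as a gene at 0 counts in WT J1 that reaches the minimum must. Besides the families above they included Dnajc5g, a germline relative of a synaptic chaperone, at 15.4 CPM in Dnmt3a/3b DKO, Fermt3, an integrin activator of blood cells, at 10.6 CPM, and Mlana, a melanocyte gene, at 9.02 CPM. These 3 were picked after their values were seen. The converse set, 0 counts in Dnmt3a/3b DKO, held 31 genes, of which 5 were protein-coding.

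Imprinted genes are expressed from 1 parental allele. Of 52 listed 44 were measured, with 14 higher and 5 lower, beside 9.23% and 9.88% of all genes, and a median of 0.42. Of the 37 at 1 CPM or more in WT J1, 9 were higher and 5 lower. The other 7, H19 and Usp29 among them, could not be lower. H19, a non-coding RNA read from the maternal allele, stood at 0.805 CPM in WT J1 and 40.6 CPM in Dnmt3a/3b DKO (50.4-fold higher, interval 28.7 to 98.1) and at 39.9 CPM in Dnmt1/3a/3b TKO and 5.27 CPM in WT TT2. Peg3 and its neighbour Usp29, both read from the paternal allele, were both higher. Peg3 stood at 7.72 against 75.2 CPM, 9.75-fold (interval 8.05 to 11.9) higher, and Usp29 at 0.336 against 7.17 CPM. Meg3 and Rian, maternal non-coding RNAs of the Dlk1-Dio3 cluster on chromosome 12, stood at 1.81 against 12.9 CPM and 2.42 against 18.6 CPM, and both were under 2 CPM in WT TT2. Lower genes included Slc22a18, at 10.7 against 2.15 CPM, and Cdkn1c, a cyclin-dependent kinase inhibitor, at 23.7 against 10.3 CPM. Both are read from the maternal allele of the same domain of distal chromosome 7.

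**Figure D4:**
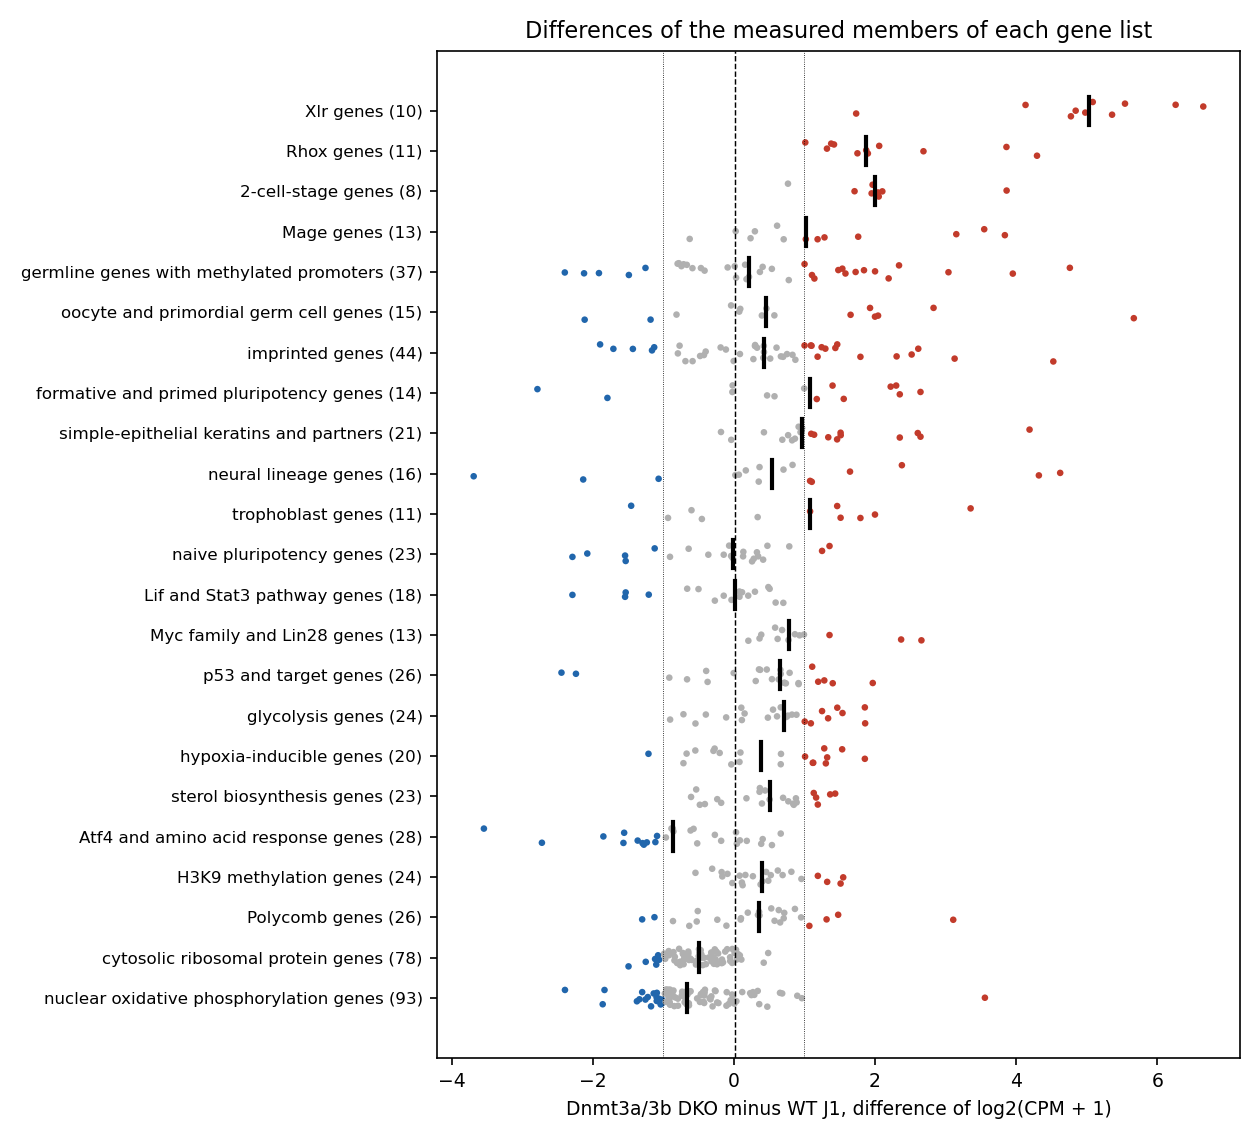
Difference between Dnmt3a/3b DKO and WT J1 (log2(CPM + 1)) of each measured member of 23 gene lists, with the number measured in parentheses, 1 point a gene, red for higher and blue for lower, the median of each list as a black bar, the median of all genes dashed and the threshold of 1 dotted. Every Xlr and Rhox point is red, whereas the Atf4 and oxidative phosphorylation lists have medians of -0.86 and -0.66.

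Naive pluripotency genes had a median of -0.02, near that of all genes. Of 23 measured 2 were higher and 5 lower, beside 9.23% and 9.88% of all genes. The lower ones included factors downstream of LIF. Tfcp2l1 stood at 241 CPM in WT J1 and 81.9 CPM in Dnmt3a/3b DKO (2.94-fold lower, interval 2.76 to 3.13), but its TPM was 27.7 and 19.6, with an effective length of 6447 bases in WT J1 and 4090 in Dnmt3a/3b DKO. Klf4 stood at 90.5 against 30.6 CPM and Tbx3 at 23.4 against 4.78 CPM. Klf5 was the lowest at 122 against 24.2 CPM, and lies within the chromosome 14 stretch described below. In the overlapping LIF and Stat3 list, 0 of 18 were higher and 4 were lower: Klf4, Klf5, Tfcp2l1 and Socs2, a feedback inhibitor of cytokine receptors, at 206 against 88.5 CPM. Levels of Tfcp2l1 were 53.8 CPM in Dnmt1/3a/3b TKO and 67.7 CPM in WT TT2. The receptor Lifr stood at 92.6 against 58.1 CPM and did not meet the rule. Nr5a2, which binds the Pou5f1 promoter region, was higher at 13.2 against 32.8 CPM.

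Genes of the formative and primed states, through which cells pass before gastrulation, were higher in 7 and lower in 2 of 14 measured. Their median was 1.08, and 9.23% and 9.88% of all genes were higher and lower. Of the 12 at 1 CPM or more in WT J1, 6 were higher and 2 lower. The lower pair was Dnmt3a and Dnmt3b themselves. Otx2, a homeobox factor of the epiblast, stood at 5.24 CPM in WT J1 and 28.1 CPM in Dnmt3a/3b DKO (5.36-fold, interval 4.21 to 6.91), with 25.6 CPM in Dnmt1/3a/3b TKO and 12.7 CPM in WT TT2. Fgf15 stood at 4.09 against 24.1 CPM and the tight junction gene Cldn6 at 10.6 against 58.2 CPM. The list's median above that of all genes was 1.08 with the main scaling and 0.40 with TPM.

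Epithelial cells form sheets joined by tight junctions and desmosomes. Of 21 simple-epithelial genes, all measured, 10 were higher and 0 lower, beside 9.23% and 9.88% of all genes. The median difference was 0.97 (0.70 above all genes with TPM). Of the 17 at 1 CPM or more in WT J1, 7 were higher, and the other 4, Cldn3 among them, could not be lower. Esrp1, a splicing factor that sets epithelial isoforms, stood at 1.88 CPM in WT J1 and 51.6 CPM in Dnmt3a/3b DKO (27.4-fold, interval 18.8 to 41.5). Grhl2, a transcription factor of epithelial junction genes, stood at 3.15 against 25 CPM (7.92-fold, interval 5.85 to 10.9), Cldn3 at 0.470 against 7.95 CPM and the desmosome gene Pkp2 at 16.8 against 50.0 CPM. Fgfr2, whose epithelial isoform depends on Esrp1, stood at 1.01 against 10.9 CPM, 10.9-fold (interval 6.41 to 19.8) higher. WT TT2 held 16.4 CPM of Esrp1, 5.70 of Grhl2 and 5.35 of Fgfr2, between WT J1 and Dnmt3a/3b DKO in each case.

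Neural genes lay in both directions. Of 29 listed 16 were measured, with 6 higher (2 of them from under 1 CPM in WT J1) and 3 lower. Of all genes 9.23% were higher and 9.88% lower. The list's median difference was 0.53, which was 0.06 above all genes with TPM. Pax6, a homeobox factor of eye and forebrain, stood at 0.268 CPM in WT J1 and 24.4 CPM in Dnmt3a/3b DKO (90.8-fold, interval 35.2 to 335), with 11.6 CPM in Dnmt1/3a/3b TKO and 6.65 CPM in WT TT2, and Neurod1, a neurogenic factor, at 1.07 against 9.80 CPM. Pou4f2, a factor of retinal ganglion cells, went the other way at 58.9 CPM in WT J1 and 3.65 CPM in Dnmt3a/3b DKO, 16.2-fold (interval 12.5 to 21.3) lower, as did Stmn3 at 39.7 against 8.25 CPM. Neurog1, Six3, Otx1, Zic1 and Zic4 had 0 counts in both libraries.

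Of 19 trophoblast genes 11 were measured, with 6 higher and 1 lower. Of the 7 that reached 1 CPM in WT J1, 2 were higher. Plac1, an X-linked placental gene, stood at 0.0671 against 9.92 CPM, and Ascl2, an imprinted factor of spongiotrophoblast, at 1.41 against 7.35 CPM. Cdx2, which defines trophectoderm, had 0 counts in both, and Tead4 was lower at 6.18 against 1.61 CPM. Their summed level was 33.5 CPM in WT J1 and 74.6 CPM in Dnmt3a/3b DKO. Endoderm genes (3 higher and 2 lower of 19 measured) and mesoderm genes (1 and 1 of 6) had medians of -0.05 and -0.58. Among endoderm genes at 1 CPM or more in WT J1, 2 of 16 were higher and 2 lower. Over all measured genes 9.23% were higher and 9.88% lower. The BMP ligand Bmp4 stood at 58.5 CPM in WT J1 and 12.8 CPM in Dnmt3a/3b DKO, 4.56-fold (interval 3.92 to 5.31) lower, and Inhbb, an activin subunit, at 29 against 5.68 CPM.

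Signalling genes differed member by member. Of 28 measured genes of the Fgf and Erk list, 5 were higher and 2 lower, beside 9.23% and 9.88% of all genes. The 2 that were lower were the feedback inhibitors Dusp6 at 179.7 CPM in WT J1 and 48.2 CPM in Dnmt3a/3b DKO (3.73-fold, interval 3.44 to 4.04) and Spry2 at 1158 against 335 CPM. Spry2 is in the chromosome 14 stretch. The immediate-early gene Ier3, which responds to the same pathway, was higher at 3.09 against 10.2 CPM. In the Wnt list 6 of 21 were higher, 4 of them from under 1 CPM in WT J1, and 2 lower. The Wnt antagonist Sfrp1 stood at 74.6 against 16.9 CPM (4.41-fold lower, interval 3.87 to 5.05). The Tcf factors that met the rule did not share a direction: Tcf7 at 9.26 against 23.5 CPM and Tcf7l1 at 3.49 against 10.9 CPM were higher, and Tcf7l2 at 25.2 against 8.96 CPM was lower. Of the Nodal, TGF-beta and BMP list, 4 of 31 were higher and 4 lower, beside 9.23% and 9.88% of all genes. Its median difference was -0.07. Among the 30 at 1 CPM or more in WT J1, 3 were higher and 4 lower.

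Genes of the integrated stress response, which the factor Atf4 induces when amino acids run short or unfolded protein accumulates, were lower wherever they met the rule. Of 28 measured 11 were lower and 0 higher, beside 9.88% and 9.23% of all genes. The median difference was -0.86 (-0.91 after centring on length, and 0.59 under the median of all genes with TPM). Chac1, which degrades glutathione, stood at 64 CPM in WT J1 and 8.84 CPM in Dnmt3a/3b DKO (7.23-fold lower, interval 6.08 to 8.66). Ddit3, the pro-apoptotic factor CHOP, stood at 48.5 against 12.7 CPM (3.81-fold, interval 3.27 to 4.46), Atf3 at 6.51 against 1.55 CPM, and Cth, which makes cysteine, at 385 against 129 CPM. Slc3a2, the heavy chain of amino acid exchangers, stood at 509 against 197 CPM. WT TT2 was near WT J1 for Chac1, Ddit3 and Slc3a2, at 58.2, 38.3 and 501 CPM, and Dnmt1/3a/3b TKO was below both at 2.85, 5.04 and 175 CPM. Cth was different, with 65.6 CPM in WT TT2.

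Glycolysis turns glucose into pyruvate and lactate. Of 24 listed 24 were measured, with 8 higher and 0 lower, beside 9.23% and 9.88% of all genes. The median difference was 0.70 (0.82 above all genes with TPM). Of the 23 at 1 CPM or more in WT J1, 7 were higher, and the remaining gene, Slc16a3, could not be lower. 1 of the identifiers with the symbol Aldoa is listed at 0 in both libraries. The glucose transporter Slc2a1 stood at 80.5 CPM in WT J1 and 294 CPM in Dnmt3a/3b DKO (3.65-fold, interval 3.43 to 3.89), the pyruvate kinase Pkm at 199 against 552 CPM, the lactate dehydrogenase Ldha at 734 against 1746 CPM and the lactate exporter Slc16a3 at 0.537 against 3.47 CPM. WT TT2 held 181, 542, 1241 and 2.71 CPM of these. Of 20 hypoxia-inducible genes, a list that shares Slc2a1, 8 were higher and 1 lower, and the median difference was 0.38. Of the 17 at 1 CPM or more in WT J1, 6 were higher and 1 lower. Bnip3, a mitophagy receptor, stood at 158 against 392 CPM with 159 CPM in Dnmt1/3a/3b TKO and 179.6 CPM in WT TT2, and Bhlhe40 was lower at 31.2 against 12.9 CPM.

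Of nuclear genes of oxidative phosphorylation, 19 of 93 measured were lower and 1 higher, beside 9.88% and 9.23% of all genes. The median difference was -0.66. These are short genes, with a median effective length of 472 bases, and after centring on length the median was -0.36 with 4 lower and 2 higher. The extremes were tissue-type cytochrome oxidase subunits: Cox7b2 stood at 2.89 CPM in WT J1 and 44.8 CPM in Dnmt3a/3b DKO (15.5-fold higher, interval 11.4 to 21.6) and Cox6b2 at 135 CPM in WT J1 and 24.9 CPM in Dnmt3a/3b DKO (5.43-fold lower, interval 4.89 to 6.05), both known from testis. Cytosolic ribosomal protein genes, of similar length at 472 bases, had 6 of 78 lower and 0 higher, against the same 9.88% and 9.23%. Their median difference was -0.50. After centring it was -0.14, with 2 lower and 0 higher. None of 8 measured mitochondrially encoded genes met the rule.

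Of the Myc and Lin28 list 3 of 13 were higher and 0 lower, beside 9.23% and 9.88% of all genes. The list's median difference was 0.77. Mycn, the Myc paralogue of embryonic cells, stood at 25.3 CPM in WT J1 and 165 CPM in Dnmt3a/3b DKO (6.52-fold, interval 5.85 to 7.28), with 85.9 CPM in Dnmt1/3a/3b TKO and 78.1 CPM in WT TT2, Mycl at 2.35 against 16.3 CPM and the RNA-binding protein Lin28a at 5.84 against 16.5 CPM. Of 20 cyclin and G1 genes 3 were higher and 1 lower, beside 9.23% and 9.88% of all genes. Among the 19 at 1 CPM or more in WT J1, 2 were higher and 1 lower. Ccnd2, a D-type cyclin, stood at 1.95 CPM in WT J1 and 18.5 CPM in Dnmt3a/3b DKO but at 37.8 CPM in WT TT2, and Ccne1, a cyclin E, at 96.3 against 258 CPM. In the p53 list 5 of 26 were higher and 2 lower, beside 9.23% and 9.88% of all genes. The p53 list had a median difference of 0.65. Its members parted by direction. Pmaip1 differed most and was lower, at 43.5 CPM in WT J1 and 7.17 CPM in Dnmt3a/3b DKO (6.07-fold, interval 4.99 to 7.43). The apoptosis effector Perp, at 52.6 CPM in WT J1 and 10.3 CPM in Dnmt3a/3b DKO (5.08-fold, interval 4.31 to 6.03), was lower too. Aen at 3.29 against 15.8 CPM, Plk2 at 8.52 against 24.1 CPM and Btg2 at 15.1 against 38.1 CPM were higher.

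Sterol biosynthesis genes were higher in 5 and lower in 0 of 23 measured, beside 9.23% and 9.88% of all genes. Their median was 0.51. Sqle, the squalene epoxidase, stood at 33.6 against 88.1 CPM and Mvd, which makes isopentenyl diphosphate, at 7.85 against 19.2 CPM. Of 12 measured genes of the liver X receptor list, which induce cholesterol efflux, 0 were higher and 2 lower, Abca1 among them, and the median was 0.15.

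In the H3K9 methylation list 4 of 24 were higher, Trim28 among them, and 0 lower, beside 9.23% and 9.88% of all genes, and the median was 0.39. Ehmt2, which encodes the H3K9 methyltransferase G9a, stood at 6.98 CPM in WT J1 and 22.3 CPM in Dnmt3a/3b DKO (3.20-fold, interval 2.57 to 4.02), with 18.1 CPM in Dnmt1/3a/3b TKO and 14.6 CPM in WT TT2. The H3K9 demethylases Kdm3a and Kdm1a were higher as well, at 54.8 against 139 CPM and 82.4 against 189 CPM. Of 26 Polycomb genes 4 were higher and 2 lower, again beside 9.23% and 9.88% of all genes. After centring on length 3 were higher and 2 lower. Bcor, an X-linked subunit of a variant Polycomb complex, stood at 3.15 CPM in WT J1 and 34.8 CPM in Dnmt3a/3b DKO (11-fold, interval 8.20 to 15.2), and Eed, a core subunit of the H3K27 methyltransferase, at 1089.9 CPM in WT J1 and 442 CPM in Dnmt3a/3b DKO (2.47-fold lower, interval 2.40 to 2.54). Eed stood at 607 CPM in Dnmt1/3a/3b TKO and 422 CPM in WT TT2, leaving WT J1 the highest of the 4. Among Ctcf and cohesin genes, 2 of 19 were higher and 1 lower, beside 9.23% and 9.88% of all genes. Of the 18 at 1 CPM or more in WT J1, 1 was higher and 1 lower. The 3 called genes are germline paralogues. Ctcfl at 0.134 against 2.75 CPM and Smc1b at 17.5 against 38.7 CPM were higher and Stag3 at 35 against 11.8 CPM lower. Ctcfl, under 1 CPM in WT J1, could not be lower.

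Interferon-stimulated genes and nucleic acid sensors showed no common shift. Of 35 listed 23 were measured, with 4 higher and 1 lower, beside 9.23% and 9.88% of all genes. The median difference was 0.28. Among the 19 at 1 CPM or more in WT J1, 3 were higher and 1 lower. The lower gene, B2m, differed most of the list, at 450 CPM in WT J1 and 74.0 CPM in Dnmt3a/3b DKO. It was 6.07-fold (interval 5.72 to 6.46) lower. The membrane proteins Ifitm1 and Ifitm3, known also as markers of germ cell precursors, stood at 460.0 against 1674 CPM and 349 against 731 CPM, and the RNA sensor Oas1a at 4.09 against 16.1 CPM. Isg15, Mx1 and Mx2 had 0 counts in both libraries.

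On 1 stretch of chromosome 14 most measured genes were lower. Medians were taken in windows of 10 Mb over genes whose level was 10 CPM or more in WT J1 or Dnmt3a/3b DKO. Of 179 windows with at least 20 genes, the window from 70 to 80 Mb had the lowest median, -1.18, and the next lowest, on chromosome 2, had -0.55. The highest was 0.56, on chromosome 11. Between 70100089 and 115046728, a stretch delimited after these values were seen, 86 genes were measured, and 48 of them (55.8%) were lower and 3 higher, beside 9.88% and 9.23% of all genes. Over its 65 genes with at least 10 CPM the median difference was -1.41 (-1.40 after centring on length), and 62 lay below 0. The remaining 234 such genes of the chromosome had a median of -0.07.

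The stretch held genes of unrelated roles. Sugt1, a co-chaperone of kinetochore assembly, stood at 1503 CPM in WT J1 and 462 CPM in Dnmt3a/3b DKO, Uchl3, a deubiquitinase, at 1869 CPM in WT J1 and 660.2 CPM in Dnmt3a/3b DKO, and Esd, an esterase, at 1019 against 182 CPM. Tsc22d1, a leucine zipper protein, stood at 1176 CPM in WT J1 and 144 CPM in Dnmt3a/3b DKO (8.18-fold lower, interval 7.83 to 8.53). Mir17hg, the host transcript of the miR-17-92 cluster, stood at 108 against 31.7 CPM. The gene Tnfsf11, which encodes the osteoclast factor RANKL, went the other way at 1.81 against 11.4 CPM. These genes, other than Tsc22d1, were chosen after their values were seen.

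The other libraries were set against the same WT J1 library over the same 65 genes. The median difference from WT J1 was -1.56 in Dnmt1/3a/3b TKO and -1.53 in WT TT2. It was -1.73 in G9a/GLP DKO, -1.61 in G9a CM, and between -2.08 and -2.18 in the 4 TT2 libraries of the G9a inhibitor series, of which 1 is the DMSO control. All 9 comparisons share WT J1. The medians of the rest of chromosome 14 were between -0.07 and -0.44. WT J1 thus stood above each of the 9 other libraries over this stretch, and what set it apart was not tested. Without it 1265 genes were higher and 1310 lower. Klf5 and Spry2 among the genes named above, and Tsc22d1, lie within it.

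**Figure D5:**
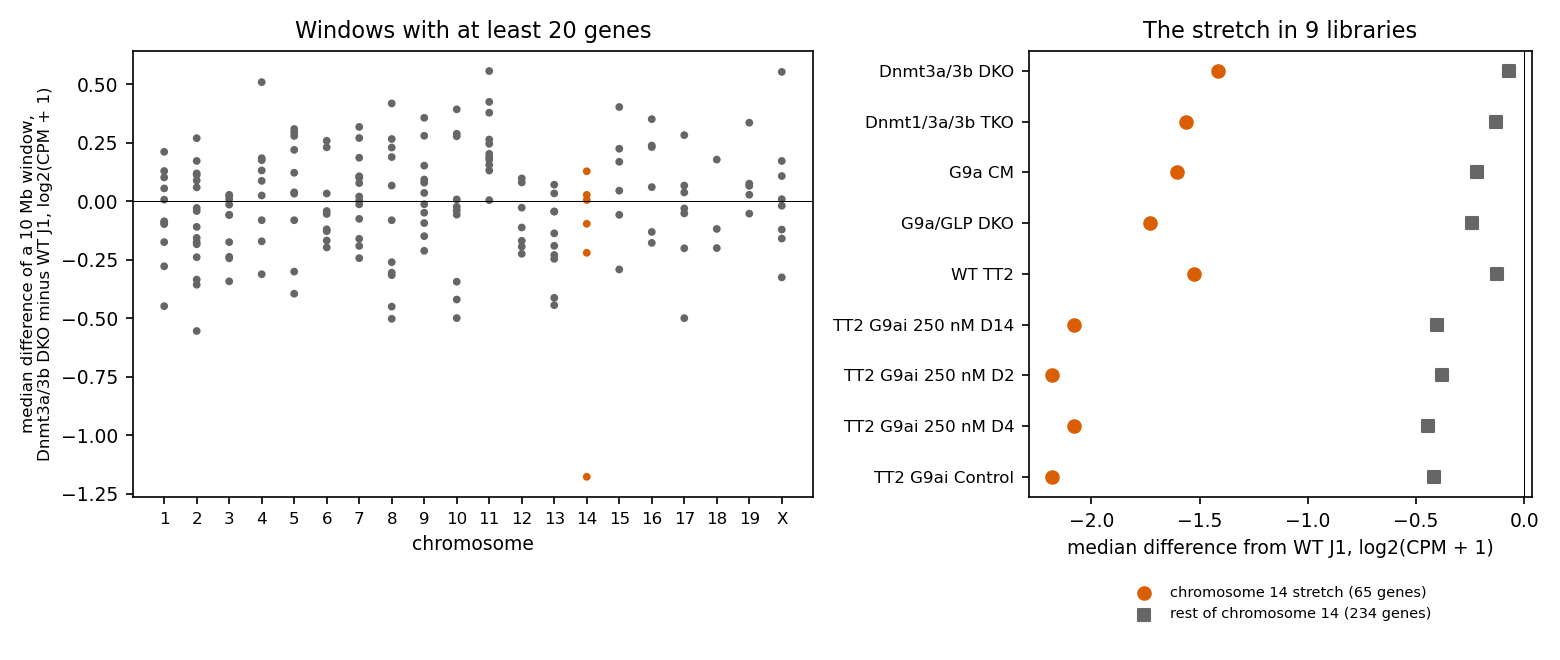
Left, median difference between Dnmt3a/3b DKO and WT J1 (log2(CPM + 1)) of each 10 Mb window with at least 20 genes, 1 point a window, by chromosome, with chromosome 14 in orange. Right, median difference from WT J1 of 65 genes of the chromosome 14 stretch (orange) and 234 other genes of that chromosome (grey squares) in each of 9 libraries, where the stretch lies at -1.41 or lower in every one.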

How the data were processed

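RNA-seq of mouse embryonic stem cells was used with 1 library a group, and the series' other 120 samples were left aside. STAR 2.5.3a, RSEM and GRCm38 (mm10) are named in the submitters' processing notes, and the annotation release and the use of strand are not given in the sources used here. A gene and an antisense or overlapping partner therefore cannot be told apart. The deposited expected counts are RSEM estimates that share reads among genes and were rounded to whole numbers here. RSEM's deposited TPM divides each count by effective length and by the library's sum, per the file headers, and the deposited effective lengths and posterior standard deviations of the count come from the same tables. Single members of near-identical families (Xlr, Rhox2, Mage, Zscan4, histone genes) are uncertain.

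TMM factors were computed with edgeR 4.0.16 over the 10 RNA libraries on genes with at least 1 CPM of the total count in any library. CPM is the count over the effective library size, 14898304 for WT J1 and 16735122 for Dnmt3a/3b DKO, and 3 counts correspond to 0.201 and 0.179 CPM. Smart-seq2 reads carry no molecular identifier, so PCR copies of 1 molecule count separately. Symbols matched 99.7% of identifiers, and coordinates, gene types and promoters came from RefSeq tables of GRCm38.p6, which placed 96.5% of measured genes and held promoters for 74.5%. The members, the 39 gene lists and the rules were chosen with earlier results of these data known. Genes to be named were the targeted ones, then 15 protein-coding genes in each direction by size of difference (10 CPM or more, a standard symbol, a posterior standard deviation under 20% of the count), then, per list with 3 or more measured members, the 6 that differed most. A paragraph may print fewer, and some of these genes are not reported here. Alternatives were other scalings, minimums, pseudocounts and thresholds, TPM, and, chosen after seeing the data, centring on length and leaving out the chromosome 14 stretch.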

Additional observations from a re-analysis of the deposited data

How the results depend on the processing

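No paired analysis was possible because each group has 1 RNA library. The number of genes higher in Dnmt3a/3b DKO was 1268 and the number lower 1358. With the deposited TPM and no interval they were 2009 and 785, with a minimum of 10 CPM 669 and 850, and with a log2 threshold of 2 197 and 202. Under the other alternatives both stayed within 1.5 times, between 1133 and 1740 higher and between 992 and 1824 lower. The percent of calls that were higher, 48.3%, was 45.8% with TMM over the 2 libraries, 63.7% with total counts, 71.9% with TPM and 44.0% with a minimum of 10 CPM, and between 46.5% and 49.6% otherwise. In no alternative was a gene called in the direction opposite to its main call. Of 230 named genes, 33 moved with TPM beyond both their counting interval and 1.5-fold, and 1 changed sign: Dnmt3a, called lower, had a log2 difference of 0.10. Of 39 list medians (36 with a minimum of 10 CPM), 4 moved by over 1.5-fold with TPM, 4 with a pseudocount of 0.25 and 3 with a minimum of 10 CPM, and 0 with total counts, DESeq2 size factors or centring on length. The counting depth limits folds of genes near the floor of 3 counts, and 1 library a group limits every comparison to these libraries.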

Other observations

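Genes of the lncRNA class differed in direction from protein-coding ones. Of 515 measured lncRNA genes 34 (6.60%) were higher and 172 (33.4%) lower in Dnmt3a/3b DKO, with a median difference of -0.70. Of 12113 protein-coding genes 9.83% were higher and 8.73% lower, and the median was 0.07. The lncRNA genes were shorter and lower in level, with a median effective length of 913 bases against 2124 and a median of 2.75 against 15.9 CPM in WT J1. After centring on length their median was -0.51. Of 43 snoRNA genes, with a median effective length of 8.6 bases, 10 were lower and 0 higher. Pseudogenes (479) had 3.34% higher and 4.80% lower, and a median of -0.23 that was 0.10 after centring on length. Of 69 replication-dependent histone genes, whose transcripts lack a poly(A) tail, 40 were measured. Of these 2 were higher and 3 lower, beside 9.23% and 9.88% of all genes. Among the 33 at 1 CPM or more in WT J1, 1 was higher and 3 lower.

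The share of lower genes was greater among genes with few promoter CpG sites in each class of level in WT J1. CpG sites were counted in the 250 bases before the start, and genes with at most 9 (few) were set beside genes with at least 20 (many). Between 1 and 5 CPM in WT J1, 11% of 811 genes with few sites and 13.6% of 744 with many were higher, and 11.3% and 5.65% were lower. Between 5 and 20 CPM, 9.12% of 669 and 7.93% of 920 were higher, and 16.9% and 8.59% lower. Between 20 and 100 CPM, 5.68% of 599 and 3.52% of 1137 were higher, and 16.7% and 7.12% lower. At 100 CPM or more, 2.22% of 270 and 1.90% of 632 were higher, and 20.7% and 10.9% lower. Genes under 1 CPM in WT J1 could not be lower and are left out. These shares are a description with no test, and the genes with few sites were shorter, with medians from 1580 to 1741 bases in the 3 classes up to 9 sites and 2634 bases at 25 sites or more.

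Some gene families gave few values. Of 39 Hox genes 3 were measured, and of 57 clustered protocadherin genes 4 were measured and 0 met the rule. Of 36 matrix and adhesion genes 33 were measured, 3 of them higher and 4 lower, beside 9.23% and 9.88% of all genes. Their median difference was -0.02. Among the 32 at 1 CPM or more in WT J1, 2 were higher and 4 lower. Anxa3 was the lowest of the matrix and adhesion genes at 26 against 4.66 CPM. A run of 5 neighbouring lower genes on chromosome 9, from 50662752 to 50768236, held Cryab and Hspb2, a pair of small heat shock protein genes that share a promoter region, and a run of 5 on chromosome 6, from 83349147 to 83712201, held Tet3.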
